A study of Mus musculus with 75 samples.

Results

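Genes of the motile cilium and of intraflagellar transport were followed across single cells of the mouse cochlea. The members were chosen by symbol alone: every gene in the count table whose symbol begins with Cfap, Dnah, Dnai, Dnal, Tekt, Rsph, Drc or Ift followed by a number, together with Nme9, and leaving out pseudogene symbols. The rule gave 83 genes of the 55291 in the table. Of these, 42 were detected in 8 or more of the 75 cells, 35 were detected in 1 to 7 cells and 6 were detected in no cell. Detection here means at least 1 CPM (a counts-per-million unit, the gene's reads scaled to the total of its cell). The 6 undetected members were Dnah2os, Dnah6, Dnah9, Tekt3, Tekt4 and Tekt5, and 3 of them (Dnah2os, Tekt3 and Tekt5) had no count in any cell. The symbols left out cilium genes with other names, which are described at the end.

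The study asked whether adult supporting cells (SCs) of the hearing organ can be turned into outer hair cells (OHCs) by the transcription factors Atoh1 and Ikzf2. All mice were labelled C57BL/6, and each library came from 1 Tdtomato+ cell picked by hand, with Smart-Seq HT chemistry. WT_P30 OHCs (n = 17 cells) were from Slc26a5 CreER/+; Ai9/+ mice, in which the Prestin locus drives Cre in OHCs, given tamoxifen at P20 and P21 and collected at P30. WT_P60 SCs (n = 16) were from Fgfr3-iCreER+; Ai9/+ mice, given tamoxifen at P30 and P31 and collected at P60. This Cre marks mainly pillar cells and Deiters' cells. The 42 induced cells came at P60 from mice that carried the same Fgfr3-iCreER+, the Atoh1 transgene CAG-LSL-Atoh1+, the Ikzf2 allele Rosa26 CAG-LSL-Ikzf2/+ and the diphtheria toxin receptor allele Slc26a5 DTR/+, with tamoxifen at P30 and P31 and diphtheria toxin at P36, which kills the OHCs because they carry the toxin receptor. Their Tdtomato was expressed from the Ikzf2 construct. The induced cells differed from WT_P60 SCs in both transgenes, in the receptor allele and in the toxin at once, so these cannot be told apart. The authors divided them by Myo7a and Prestin into 11 OHC-like cells (both present), 16 nascent HCs (Myo7a only) and 15 SCs failing to become HCs (neither).

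A cilium is a microtubule shaft, the axoneme, built and maintained by intraflagellar transport: trains of IFT-B proteins carry cargo to the tip with kinesin, and IFT-A proteins serve the return with cytoplasmic dynein. Motile cilia add dynein arms that slide the microtubule doublets, radial spokes and a central apparatus that regulate the arms, and the nexin-dynein regulatory complex that links neighbouring doublets. Cochlear hair cells carry a single kinocilium while the hair bundle forms and lose it as they mature in the mouse, whereas supporting cells bear a primary cilium, which needs intraflagellar transport but lacks most motility parts.

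The promoters of 5 members are shown because these are the members called higher or lower in OHC-like cells against WT_P60 SCs: Cfap161, Cfap61, Rsph9 and Nme9 were higher in induced hair cells and Drc1 was higher in WT_P60 SCs. Each sequence is 300 bases, from 250 before to 50 after the RefSeq start of the gene, printed 5′ to 3′ on the gene's strand (GRCm38.p6). Capitals mark matches on either strand to the X-box of RFX factors (GTNNCC, any 3 bases, then GNAAC), which control many cilium genes, or to the shorter site GTTNCC, which can overlap it. The windows are chr7:83794790-83795089 on the minus strand for Cfap161, chr2:145934534-145934833 on the plus strand for Cfap61, chr17:46144151-46144450 on the minus strand for Rsph9, chr9:99455993-99456292 on the plus strand for Nme9, and chr5:30281143-30281442 on the plus strand for Drc1. In the GENCODE annotation of GRCm38 these protein-coding genes span chr7:83774101-83794880, chr2:145934784-146215039, chr17:46122035-46144216, chr9:99451475-99474751 and chr5:30281388-30366695, in the same order.
Cfap161: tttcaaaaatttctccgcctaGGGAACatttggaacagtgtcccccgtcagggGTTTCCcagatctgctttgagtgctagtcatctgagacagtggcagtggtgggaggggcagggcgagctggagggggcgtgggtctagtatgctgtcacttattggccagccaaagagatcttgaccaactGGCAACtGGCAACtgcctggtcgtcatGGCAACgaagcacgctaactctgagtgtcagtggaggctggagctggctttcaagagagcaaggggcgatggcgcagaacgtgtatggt
Cfap61: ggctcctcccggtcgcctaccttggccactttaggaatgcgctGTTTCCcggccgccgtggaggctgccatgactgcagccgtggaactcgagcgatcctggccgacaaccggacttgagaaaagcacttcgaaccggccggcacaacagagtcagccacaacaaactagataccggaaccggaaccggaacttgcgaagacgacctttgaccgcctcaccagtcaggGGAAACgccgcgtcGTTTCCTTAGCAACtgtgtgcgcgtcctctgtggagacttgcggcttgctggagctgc
Rsph9: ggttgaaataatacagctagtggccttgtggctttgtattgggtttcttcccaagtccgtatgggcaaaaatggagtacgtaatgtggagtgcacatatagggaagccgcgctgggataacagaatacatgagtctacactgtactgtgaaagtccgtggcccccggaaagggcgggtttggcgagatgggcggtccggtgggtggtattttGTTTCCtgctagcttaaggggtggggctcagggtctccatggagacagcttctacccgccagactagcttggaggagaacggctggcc
Nme9: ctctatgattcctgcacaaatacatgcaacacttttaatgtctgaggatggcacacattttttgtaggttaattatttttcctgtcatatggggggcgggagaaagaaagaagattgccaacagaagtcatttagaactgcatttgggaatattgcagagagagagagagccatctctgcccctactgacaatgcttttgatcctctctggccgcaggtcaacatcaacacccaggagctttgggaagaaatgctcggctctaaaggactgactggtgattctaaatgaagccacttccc
Drc1: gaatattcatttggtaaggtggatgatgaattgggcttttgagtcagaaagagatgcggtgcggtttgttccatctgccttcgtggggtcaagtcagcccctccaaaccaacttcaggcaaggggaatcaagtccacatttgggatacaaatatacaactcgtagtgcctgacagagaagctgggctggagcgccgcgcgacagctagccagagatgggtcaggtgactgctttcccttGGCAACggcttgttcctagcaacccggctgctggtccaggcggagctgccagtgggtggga

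An X-box match stood in the Cfap61 promoter, with its first base at position -8 from the start, and its first 6 bases were also a match to the shorter site. Matches to the shorter site numbered 5 in the Cfap161 promoter, 3 in that of Cfap61, 1 in that of Rsph9, 1 in that of Drc1 and 0 in that of Nme9. The RefSeq start of Nme9 lies inside the longer GENCODE gene, so another start may exist. Promoter sequences were found for 67 of the 83 members. An X-box match was present in 9 of these 67 (13.4%) and in 2.28% of all 20977 promoters of the same length. The shorter site was present in 71.6% of member promoters and 46.0% of all promoters, and the E-box CAGCTG, a motif of basic helix-loop-helix factors such as Atoh1, in 13.4% and 15.7%. These are matches of letters and do not show binding.

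Total reads per cell ran from 4264780 to 22934062, and the group medians of genes detected per cell were 4777 in WT_P30 OHCs, 6872.5 in WT_P60 SCs, 8488 in OHC-like cells, 8066.5 in nascent HCs and 6977 in SCs failing to become HCs. Prestin (Slc26a5) was detected in 17 of 17 WT_P30 OHCs, 11 of 11 OHC-like cells, 3 of 16 nascent HCs and 0 cells of the other groups, and its median was 1855 CPM in WT_P30 OHCs against 56.2 CPM in OHC-like cells. Myo7a was detected in every cell of these 3 hair cell groups, in 3 of 15 SCs failing to become HCs and in 0 of 16 WT_P60 SCs. Ocm, an OHC marker not used to define the groups, had a median of 30071 CPM in WT_P30 OHCs (17 of 17 cells). It reached 1 CPM in 7 of 11 OHC-like cells (median 261 CPM) and 6 of 16 nascent HCs (median 0.218 CPM). It also did so in 1 SC that failed to become HCs and 0 WT_P60 SCs. The inner hair cell marker Slc17a8 reached 1 CPM in 2 WT_P30 OHCs, up to 110 CPM, 1 nascent HC and 1 WT_P60 SC. Slc7a14, another, did so in 1 nascent HC and 2 SCs that failed. Gjb2, a gap junction gene of supporting cells, was detected in 16 of 16 WT_P60 SCs and in 11 of the 15 SCs that failed to become HCs. It was also detected in 3 of 16 nascent HCs, 1 of 11 OHC-like cells and 1 of 17 WT_P30 OHCs. The supporting cell marker Sox2 was detected in 13, 13, 10, 4 and 0 cells of these groups in that order. Sox10, another such marker, was detected in 15, 7, 2, 1 and 0 cells. The macrophage markers C1qb and Cx3cr1 were detected in 0 cells and C1qa in 1 OHC, while the endothelial marker Pecam1 was detected in 9 WT_P60 SCs and Cldn5 in 1. The fibroblast marker Dcn was detected in at most 4 cells of any group, and Hba-a1 of red blood cells in at most 3, with 1099 CPM in 1 OHC-like cell. Of the neuronal markers, Nefl was detected in 5 of 17 WT_P30 OHCs, up to 233 CPM, 1 SC failing to become HCs and 0 cells of the other groups. Tubb3 was detected in 5 nascent HCs, up to 957 CPM, and in 2 to 4 cells of each other group. Snap25 was detected in 16 WT_P30 OHCs, 9 OHC-like cells, 10 nascent HCs, 2 SCs failing to become HCs and 0 WT_P60 SCs. The part of such cells in the results was not tested. OHC-like cell 4 stood apart with 3348 genes detected, against 7158 to 9654 in the other 10. Cells were divided into 7 series by library number. The numbers ran on without a break between some of the series, so a series is not shown to be a batch of preparation. One series held all WT_P30 OHCs and another all WT_P60 SCs, so group and series cannot be told apart for them, and induced cells came from 5 others. Because the labels name no animal, each group counted as 1 sample and no test was run. A member was called higher or lower when the mean CPM over cells differed at least 4-fold and the gene was detected in at least 50% of the cells of the higher group. Intervals are exact 95% intervals and cover counting error only, since reads carried no molecular identifiers. In single cells picked by hand, a missing transcript and a transcript lost in library preparation cannot be told apart.

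By median, more cilium genes were detected in the 2 groups of induced hair cells than in the other groups. The lowest, median and highest numbers of members per cell were 5, 30 and 37 in OHC-like cells and 20, 25 and 35 in nascent HCs. In WT_P60 SCs they were 12, 18.5 and 26, in SCs failing to become HCs 6, 14 and 22, and in WT_P30 OHCs 4, 11 and 20. Without OHC-like cell 4, which had the 5, the OHC-like range began at 21. Nascent HCs and WT_P30 OHCs met only at 20, and the range of nascent HCs overlapped that of every other group.

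The number of all genes detected moved with these counts. Per 1000 genes detected, the median number of members was 3.59 in OHC-like cells, 3.32 in nascent HCs, 2.84 in WT_P60 SCs, 2.37 in WT_P30 OHCs and 2.13 in SCs failing to become HCs. The order of the 2 induced hair cell groups above the others was thus kept, with smaller gaps, and ranges overlapped between all groups. The summed level of the members had medians of 1879 CPM in OHC-like cells (range 562 to 2395), 1548 CPM in nascent HCs (1128 to 3515), 1303 CPM in WT_P60 SCs (855 to 1520), 1062 CPM in WT_P30 OHCs (264 to 1844) and 910.2 CPM in SCs failing to become HCs (301 to 1835).

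**Figure D1:**
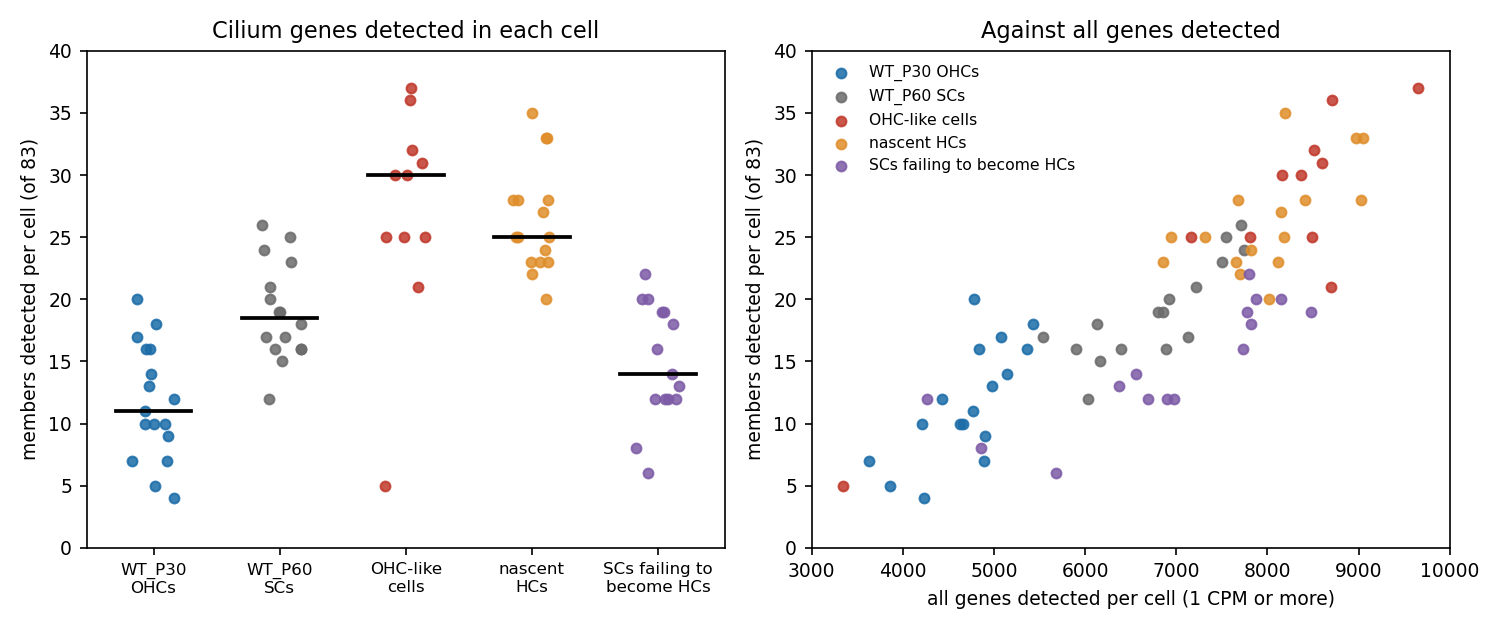
Left, number of the 83 cilium genes detected (1 CPM or more) in each cell, by group, with the group median as a bar; right, the same numbers against all genes detected in the cell. OHC-like cells and nascent HCs had medians of 30 and 25 members, and the single low OHC-like cell with 5 members also had the fewest genes of its group.

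Few members were common to all groups. Detection in at least 50% of cells was reached by 28 of 83 members in OHC-like cells, 25 in nascent HCs, 19 in WT_P60 SCs, 12 in SCs failing to become HCs and 6 in WT_P30 OHCs, and for 53 members in no group. Of all 55291 genes, 7739, 7995, 6535, 6540 and 3784 reached it in the same order of groups, so WT_P30 OHCs were lowest for genes at large as well. The 4 members that reached it in every group were Cfap36, Ift20, Ift22 and Ift74. Of the 67 members outside intraflagellar transport, leaving aside the opposite-strand transcripts Dnah2os and Ift88os, 14 reached it in OHC-like cells and 1, Cfap36, in WT_P30 OHCs. Of the 14 intraflagellar transport members, 14 reached it in OHC-like cells and 5 in WT_P30 OHCs.

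Against WT_P60 SCs, 4 members were higher in OHC-like cells, namely Cfap161, Cfap61, Nme9 and Rsph9, and 1, Drc1, was lower. These were 4.82% and 1.20% of the 83 members, or 9.52% and 2.38% of the 42 that passed the detection filter (8 or more cells), where 10.2% of the 12681 genes that passed were called higher and 7.03% lower. The 4.82% counts members that did not pass, so it is not set against that background. The 9.52% was not above the 10.2%, although Cfap161, Cfap61 and Nme9 passed the filter only through induced hair cells. What follows describes which members they were and how far apart the groups stood. In nascent HCs, 3 members were higher (Cfap161, Cfap61 and Rsph9) and 2 lower (Drc1 and Ift172), 7.14% and 4.76% of the 42, where 10.0% of the genes that passed were called higher and 6.25% lower. In SCs failing to become HCs, 0 members were higher and 2 lower (Drc1 and Drc3), 4.76% of the 42, where 5.57% of the genes that passed were called higher and 4.23% lower. All these comparisons share the same 16 WT_P60 SCs.

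Cfap161, a protein of the inner wall of axonemal doublets, was detected in all 16 nascent HCs, with levels of 19.6, 64.5 and 589 CPM at the lowest, median and highest (mean 142.6 ± 182, SD over cells). It was detected in 7 of 11 OHC-like cells (63.6%, interval 30.8 to 89.1%), at 0, 38.6 and 365 CPM. In 0 of 17 WT_P30 OHCs and 0 of 16 WT_P60 SCs was it detected, with 1 read in each group, and in 1 of 15 SCs failing to become HCs, at 31.6 CPM. Nascent HCs did not overlap with either wild-type group. Reads summed over the group, relative to total reads, were 14492 times as high in nascent HCs as in WT_P60 SCs (interval 2601 to 572407) and 10959 times as high in OHC-like cells (1966 to 432878), intervals that are wide because the divisor was 1 read. The study names Cfap161 and Nme9 on these same cells, so their direction is not independent evidence.

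Cfap61, a subunit of the radial spokes, was also seen only in induced hair cells at 1 CPM or more. Its levels were 0, 19.0 and 295 CPM in nascent HCs (detected in 10 of 16, 62.5%, interval 35.4 to 84.8%) and 0, 1.02 and 107 CPM in OHC-like cells (6 of 11, 54.5%, 23.4 to 83.3%). No read was counted in wild-type cells of either group and 1 read in the 15 SCs failing to become HCs. With WT_P60 SCs set at a floor of 3 counts over the group, Cfap61 was higher by at least 2131-fold in nascent HCs and by at least 795-fold in OHC-like cells. OHC-like cell 10 carried much of the latter, and the bound was 473-fold without it. The Cfap61 gene shares 57 exonic bases with Crnkl1 on the other strand.

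Rsph9, a protein of the radial spoke head, was detected in 14 of 16 nascent HCs (87.5%, interval 61.7 to 98.4%) and 7 of 11 OHC-like cells (63.6%, 30.8 to 89.1%). Its levels were 0, 42.5 and 182 CPM in nascent HCs and 0, 28.1 and 134 CPM in OHC-like cells. Unlike Cfap161 and Cfap61, it was also detected in 4 of 17 WT_P30 OHCs (23.5%, 6.81 to 49.9%), where the highest level was 116 CPM and the median 0. In WT_P60 SCs 1 of 16 cells had it, at 6.10 CPM, and in SCs failing to become HCs 1 of 15, at 173 CPM. Mean CPM was 173-fold higher in nascent HCs and 101-fold in OHC-like cells, both against WT_P60 SCs. Both folds rested on the single SC with reads, and leaving out this cell (WT_P60 SC 15) gave at least 2351-fold and at least 1368-fold.

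Nme9, a member of the nucleoside diphosphate kinase family with a thioredoxin domain, was the one of these genes detected more often in OHC-like cells (8 of 11, 72.7%, interval 39.0 to 94.0%) than in nascent HCs (7 of 16, 43.8%, 19.8 to 70.1%), though the intervals overlapped. Its levels were 0, 55.2 and 173 CPM in OHC-like cells and 0, 0.13 and 183 CPM in nascent HCs. It had 0 reads in WT_P60 SCs and in SCs failing to become HCs, and 1 of 17 WT_P30 OHCs had it, at 9.19 CPM. Relative to WT_P60 SCs, its mean in OHC-like cells was higher by at least 2308-fold. In nascent HCs it was at least 891-fold higher but missed the detection rule.

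Most induced hair cells had several of these 4 genes detected. At least 2 of Cfap161, Cfap61, Rsph9 and Nme9 were detected in 15 of 16 nascent HCs and 9 of 11 OHC-like cells, and in 0 of 17 WT_P30 OHCs, 0 of 16 WT_P60 SCs and 0 of 15 SCs failing to become HCs. All 4 were detected in 3 nascent HCs and 3 OHC-like cells. None of the 4 was detected in 12 of 17 WT_P30 OHCs, 15 of 16 WT_P60 SCs, 13 of 15 SCs failing to become HCs, 1 of 11 OHC-like cells and 0 of 16 nascent HCs. The genes were picked for their high level in these cells, so the counts are a description. Genes that are each detected in many cells of a group must often meet in the same cell. Whether they met more often than that was not tested.

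**Figure D2:**
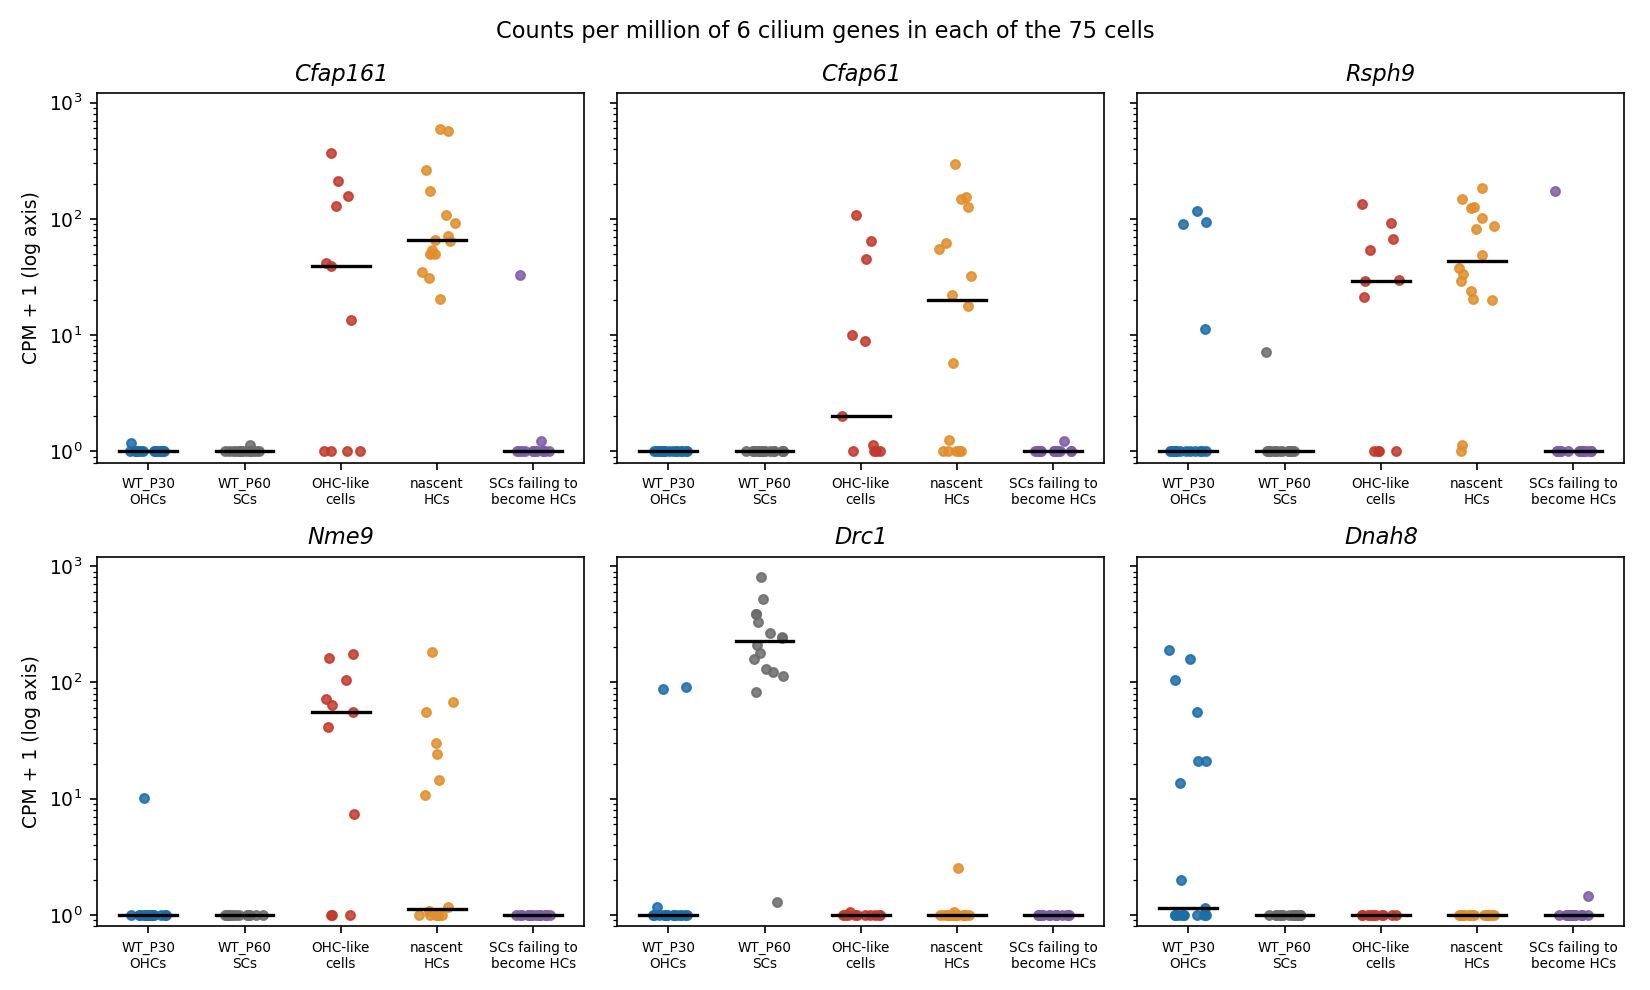
Level of 6 members in each of the 75 cells, as CPM + 1 on a log axis, with the group median as a bar. Cfap161, Cfap61, Rsph9 and Nme9 lay mostly in OHC-like cells and nascent HCs, Drc1 in WT_P60 SCs with a median of 225 CPM, and Dnah8 in WT_P30 OHCs.

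Other radial spoke genes were detected less often or more evenly. Rsph3a and Rsph3b, close paralogs whose reads may be split between them, were detected in 14 and 15 of 16 nascent HCs and in 8 and 7 of 16 WT_P60 SCs. Rsph1, another spoke head protein, was detected in 4 nascent HCs, 4 WT_P30 OHCs, 2 OHC-like cells, 1 SC failing to become HCs and 0 WT_P60 SCs. Its highest level, 324 CPM, was in a WT_P30 OHC. Rsph4a, Rsph6a, Rsph10b and Rsph14 were each detected in at most 5 cells of any group. Cfap206, a spoke protein named here after its values were seen, was detected in 7 of 17 WT_P30 OHCs (41.2%, interval 18.4 to 67.1%) reaching 250 CPM, and in 1 cell of each other group.

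SCs failing to become HCs and nascent HCs carried the same transgenes and had been exposed to the same drugs, so their comparison sets cells that the authors assigned by Myo7a against cells they did not, although Myo7a was detected in 3 of the latter 15. Here 4 members were higher in nascent HCs (Cfap161, Cfap61, Ift80 and Rsph9) and 0 lower. This was 4.82% of the 83 members and 9.52% of the 42 that passed the filter, where 4.60% of the genes that passed were called higher and 2.63% lower. The first share counts members that did not pass, and a member that passed only because it was high in 1 group had to differ. Neither share is therefore set against the background. Cfap161 was 67.2-fold higher by mean CPM. SC failing to become HCs 15 held nearly all of that group's Cfap161 reads, and without it 1 read was left and the ratio of summed levels was 15478 (interval 2778 to 611355). Rsph9 was 5.71-fold higher, a value set by SC failing to become HCs 7, without which it was at least 2699-fold. For Cfap61 the ratio of summed levels was 7719 (1385 to 304924).

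These 2 groups met in 3 of the library series, which are not shown to be batches. In the first, the 1 nascent HC had 63.9 CPM of Cfap161, 19.5 CPM of Rsph9 and 21.2 CPM of Cfap61, and 0 of 4 SCs failing to become HCs had any of the genes detected. In the second, the 1 nascent HC had 264 CPM of Cfap161, 100.6 CPM of Rsph9 and 16.9 CPM of Cfap61, against detection in 0, 1 and 0 of 10 SCs failing to become HCs. In the last, 4 of 4 nascent HCs had Cfap161, with a mean of 331 CPM, and the 1 SC failing to become HCs had 31.6 CPM. Cfap61 was detected there in 2 of 4 nascent HCs, with a mean of 105 CPM, and was at 0 CPM in the 1 SC failing to become HCs. By mean, nascent HCs were thus higher in Cfap161 and Cfap61 within each of the 3 series, each with only 1 cell of 1 group. Restricted to them, Cfap161, Cfap61 and Rsph9 were still called, Ift88 was added and Ift80 was lost.

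Drc1, a scaffold of the nexin-dynein regulatory complex, went the other way. It was detected in 15 of 16 WT_P60 SCs (93.8%, interval 69.8 to 99.8%) at 0.278, 225 and 808 CPM (mean 261 ± 197). In reads per length it was the highest member in these cells, at a mean of 254 TPM (transcripts-per-million units, which also divide by exon length). It had 0 reads in the 15 SCs failing to become HCs, 1 read in the 11 OHC-like cells and 29 reads in the 16 nascent HCs, of which 1 cell reached 1.52 CPM. Among WT_P30 OHCs, 2 of 17 had it, the highest at 91.1 CPM. The endothelial marker Pecam1 was also detected most often in WT_P60 SCs, in 9 of 16 cells, and its part in the Drc1 level was not tested.

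Drc1 was at least 11371-fold lower in SCs failing to become HCs than in WT_P60 SCs. The ratio of summed levels in WT_P60 SCs to OHC-like cells was 31789 (interval 5705 to 1255630). Mean CPM was 2654-fold lower in nascent HCs, where nascent HC 10 held nearly all reads and the ratio without it was 47171 (8466 to 1863210). It was 25.0-fold lower in WT_P30 OHCs, and 45.8-fold and 48.2-fold without OHC 6 and OHC 3, the 2 that had it. Drc1 was therefore low in all 3 groups of induced cells, SCs failing to become HCs included, and only the wild-type SC libraries were high.

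Drc3, a leucine-rich repeat protein of the same complex, had another pattern. It was detected in 9 of 16 WT_P60 SCs, 8 of 11 OHC-like cells, 5 of 16 nascent HCs, 5 of 15 SCs failing to become HCs and 2 of 17 WT_P30 OHCs. Mean CPM was 17.1, 36.2, 11.5, 3.84 and 6.88 in the same order. It was 4.45-fold lower in SCs failing to become HCs than in WT_P60 SCs, but 2.84-fold without WT_P60 SC 16 and 9.01-fold without SC failing to become HCs 3. Drc7 was detected in 2 nascent HCs alone. The members of this complex thus did not share 1 pattern across the groups.

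Axonemal dyneins were scarce. The 10 inner arm heavy chains were each detected in at most 6 cells of any group. The 6 outer arm members had medians of 0 or 1 per cell detected, apart from 0.5 in WT_P60 SCs. Dnah8, an outer arm heavy chain named after its values were seen, was detected in 8 of 17 WT_P30 OHCs (47.1%, interval 23.0 to 72.2%) at 0, 0.136 and 190 CPM, and in 0 cells of the other groups, where 2 reads in 1 SC failing to become HCs were all that was counted. It missed the 50% rule by 1 cell, and its exons overlap 2 other genes on the opposite strand. Dnah14, also seen in OHCs, was detected in 6 of 17 of them and in at most 2 cells of any other group. Dnal1, a light chain of the outer arm, was detected in 10 of 16 nascent HCs and 7 of 16 WT_P60 SCs. Dnal4, a light chain of the LC8 type, was detected in 15 of 16 nascent HCs and 10 of 11 OHC-like cells, with medians of 87.4 and 51.7 CPM, and in 6 of 16 WT_P60 SCs with a median of 0. Reads of Dnah7a, Dnah7b and Dnah7c, which are close paralogs, may be split among them.

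Tektins are filaments bound to axonemal doublets. Tekt1 was detected in 10 of 16 WT_P60 SCs, 9 of 11 OHC-like cells, 9 of 16 nascent HCs, 6 of 15 SCs failing to become HCs and 4 of 17 WT_P30 OHCs, with its highest median, 67.4 CPM, in OHC-like cells. Tekt2 was detected in 3 cells in all and the others in 0. The 7 members of the central apparatus were each detected in at most 5 cells of any group, and Cfap69 was detected in 4 nascent HCs only. Most dynein heavy chains and central apparatus genes were thus detected in few cells of the groups in which Cfap61 and Rsph9 were high.

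Of the other Cfap genes, a few were detected broadly. Cfap20, at the inner junction of the doublets, was detected in 16 of 16 nascent HCs, 15 of 15 SCs failing to become HCs, 10 of 11 OHC-like cells, 13 of 16 WT_P60 SCs and 5 of 17 WT_P30 OHCs. Its medians were 140, 153, 160, 124 and 0 CPM in the same order. Cfap36, which binds the small GTPase Arl3, had medians of 182 CPM in nascent HCs, 149 in OHC-like cells, 109 in SCs failing to become HCs, 47.5 in WT_P30 OHCs and 33.2 in WT_P60 SCs. Both lay higher in the induced groups by median, with ranges that overlapped those of WT_P60 SCs.

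Cfap410, a basal body protein, and Cfap97 were called only against WT_P30 OHCs. Cfap410 was 5.00-fold higher in OHC-like cells (mean 56.6 against 11.3 CPM), and 8.53-fold or 9.30-fold without OHC 4 or OHC 6. Cfap97 was 9.65-fold higher (34.0 against 3.52 CPM), and its exons share 132 bases with Snx25 on the other strand. Cfap298, a cytoplasmic factor for dynein arm assembly named after its values were seen, was detected in 16 of 16 WT_P60 SCs and 16 of 16 nascent HCs at medians of 19.3 and 12.6 CPM, and in 3 of 17 WT_P30 OHCs.

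**Figure D3:**
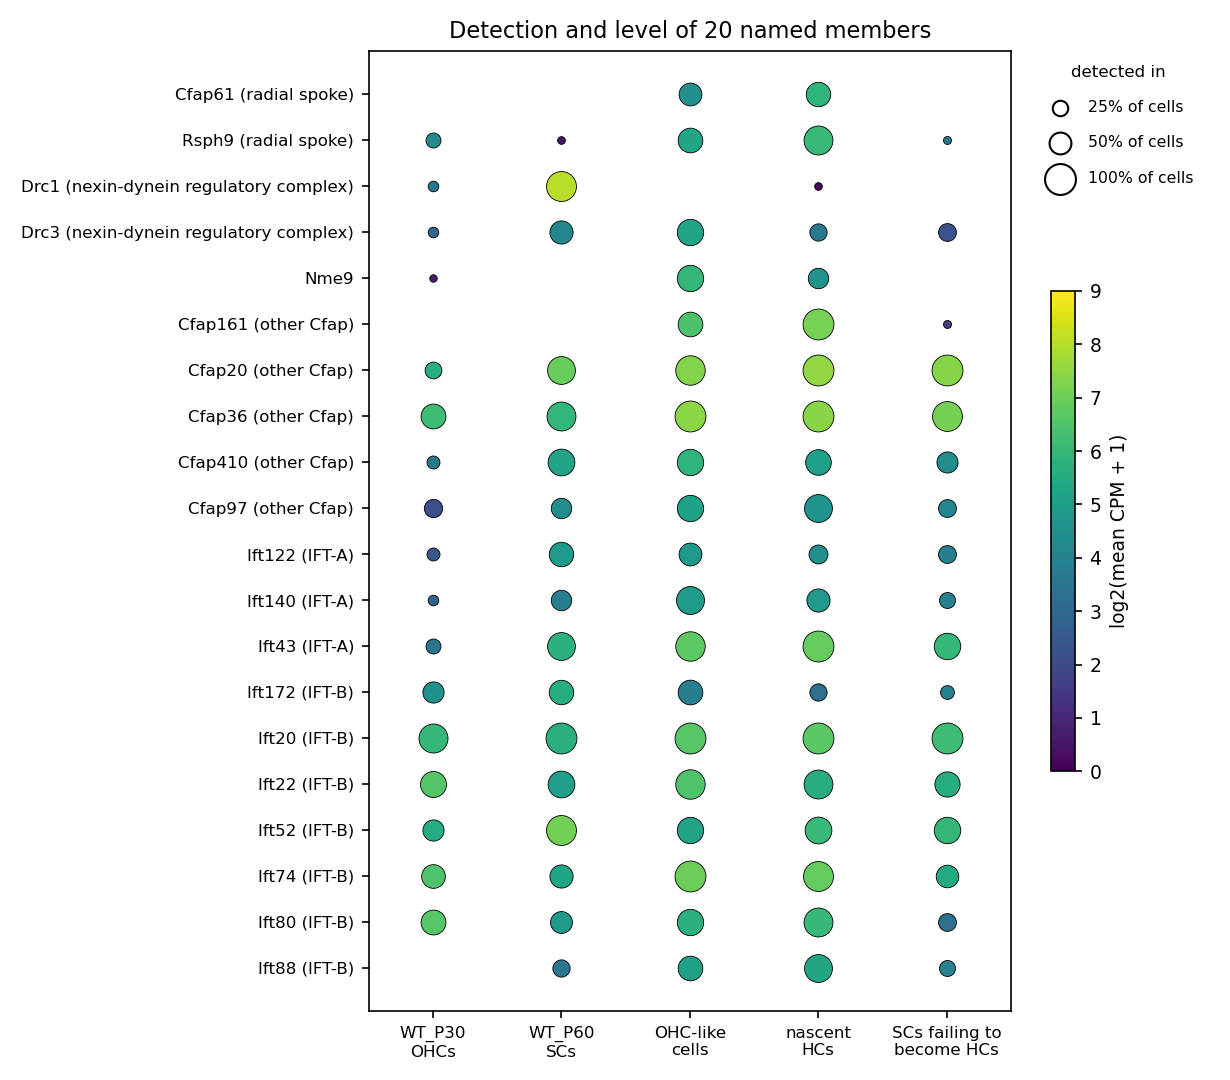
Detection (circle area, share of cells with 1 CPM or more) and level (colour, log2 of mean CPM + 1) of 20 members in the 5 groups. Cfap61, Cfap161 and Nme9 had circles almost only in OHC-like cells and nascent HCs, Drc1 was brightest in WT_P60 SCs, and Cfap36 and Ift20 were detected widely in every group.

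Intraflagellar transport genes were present in all groups at lower contrast. The median number detected per cell, of 14, was 11 in OHC-like cells, 10 in nascent HCs, 9 in WT_P60 SCs, 7 in SCs failing to become HCs and 6 in WT_P30 OHCs, and their summed level had medians of 831, 751, 544, 433 and 571 CPM. Per length, Ift43 was the highest member in OHC-like cells (mean 149.6 TPM) and nascent HCs (175 TPM), and Ift20 in WT_P30 OHCs (84.6 TPM). After Drc1, Ift52 was the highest in WT_P60 SCs (127 TPM).

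Among IFT-A genes, whose products serve retrograde transport, Ift43 was detected in 16 of 16 nascent HCs, 10 of 11 OHC-like cells, 13 of 16 WT_P60 SCs, 11 of 15 SCs failing to become HCs and 4 of 17 WT_P30 OHCs. Its medians were 73.3, 108, 53.9, 52.8 and 0 CPM. Mean CPM was 5.29-fold lower in WT_P30 OHCs than in WT_P60 SCs and 10.8-fold higher in OHC-like cells than in WT_P30 OHCs. Ift122 was 6.66-fold lower in WT_P30 OHCs than in WT_P60 SCs, and 19.4-fold without OHC 16. Ift140 was detected in 9 of 11 OHC-like cells and 2 of 17 WT_P30 OHCs. All 3 IFT-A genes were thus detected in at most 4 of 17 WT_P30 OHCs.

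Among IFT-B genes, Ift88, which is needed for cilium assembly, was detected in 13 of 16 nascent HCs (median 29.0 CPM), 7 of 11 OHC-like cells (4.76 CPM), 5 of 16 WT_P60 SCs, 4 of 15 SCs failing to become HCs and 0 of 17 WT_P30 OHCs, where 1 cell had a trace at 0.196 CPM. Mean CPM in OHC-like cells and nascent HCs was 3.26-fold and 3.73-fold higher than in WT_P60 SCs, short of the threshold. Its exons share 67 bases with Ift88os on the other strand. Ift80 was 7.38-fold higher in nascent HCs than in SCs failing to become HCs (14 of 16 against 5 of 15 cells), and 11.2-fold without SC failing to become HCs 15. It was not low in WT_P30 OHCs, where 11 of 17 cells had it at a median of 38.2 CPM.

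Some of the other IFT-B genes lay highest in WT_P60 SCs, and others did not. Ift52, a core subunit, was detected in 15 of 16 WT_P60 SCs at a median of 139 CPM, against 40.4 CPM in OHC-like cells and 37.0 CPM in nascent HCs, and its mean was 3.78-fold lower in OHC-like cells. Ift172, the largest IFT-B subunit, was 5.34-fold lower in nascent HCs than in WT_P60 SCs (means 8.64 and 46.1 CPM), and 9.90-fold without nascent HC 1. Ift46 had medians of 56.8 CPM in WT_P60 SCs, 36.0 in SCs failing to become HCs, 10.7 in nascent HCs and 1.76 in OHC-like cells. Ift74, which binds tubulin together with Ift81, was high in OHC-like cells (11 of 11, median 138 CPM) and nascent HCs (15 of 16, 116 CPM) and lower in WT_P60 SCs (9 of 16, 12.8 CPM). Ift22, a small GTPase-like subunit, had medians of 82.5 CPM in WT_P30 OHCs, 81.2 in OHC-like cells, 43.9 in nascent HCs, 30.2 in WT_P60 SCs and 17.6 in SCs failing to become HCs. Ift20, which also acts at the Golgi, was detected in 15 of 17 WT_P30 OHCs and in every cell of the other groups. Subunits of 1 complex therefore differed in which group was highest, with overlapping ranges.

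**Figure D4:**
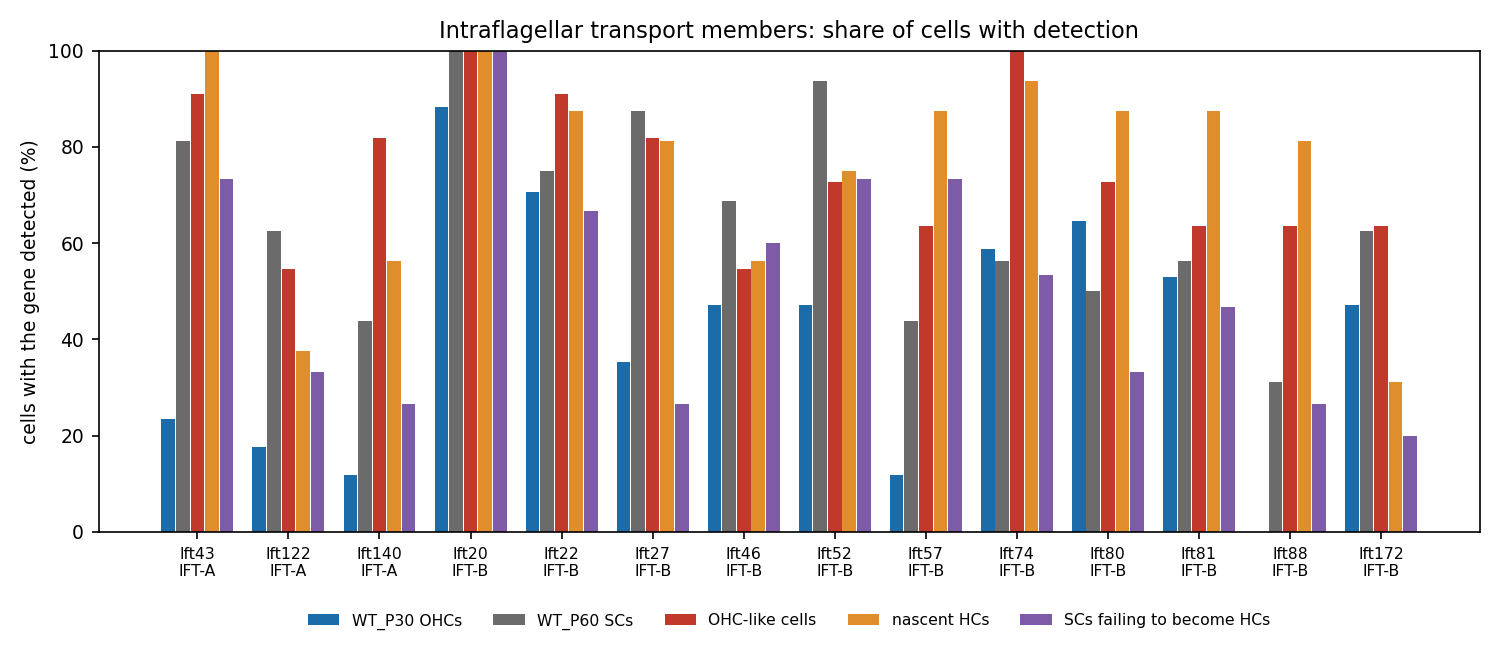
Share of cells of each group in which each of the 14 intraflagellar transport genes was detected (1 CPM or more); bars start at 0%. Ift20 was near 100% in every group, Ift88 was at 0% in WT_P30 OHCs, and Ift52 and Ift172 did not follow the order of Ift88.

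In the comparison of wild-type cells, 0 members were higher and 3 lower (Drc1, Ift122 and Ift43) in WT_P30 OHCs than in WT_P60 SCs, 3.61% of the 83 members and 7.14% of the 42 that passed, where 6.22% of the genes that passed were called higher and 11.6% lower. Age differed between these groups as well. Against the same WT_P30 OHCs, 10 members were higher in OHC-like cells and 0 lower, 12.0% of the 83 members and 23.8% of the 42 that passed, where 11.6% of the genes that passed were called higher and 3.90% lower. The 10 were Cfap161, Cfap61, Cfap97, Cfap410, Drc3, Ift43, Ift88, Ift122, Ift140 and Nme9. Of these, Cfap161, Cfap61 and Nme9 passed the filter only through the induced hair cells in which they were high. The 23.8% is therefore not set against the 11.6% of genes that passed, nor is the 12.0%, which counts members that did not pass. The ratios of summed levels were 10279 for Cfap161 (interval 1845 to 406037) and 3612 for Ift88 (648 to 142712). Cfap61 was at least 746-fold higher, and at least 444-fold without OHC-like cell 10, and Nme9 was 114-fold higher, or at least 2049-fold without OHC 15.

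Smaller folds in that comparison leaned on single cells. Ift122 was 6.20-fold higher, and 18.1-fold without OHC 16. Drc3 was 5.26-fold higher, and 18.8-fold without OHC 3. Ift140 was 4.90-fold higher, 3.54-fold and no longer called without OHC-like cell 11, and 14.4-fold without OHC 11. Between OHC-like cells and nascent HCs, 0 members were called in either direction, where 0.765% of the genes that passed were called higher in OHC-like cells and 1.17% lower. Nme9 was 2.59-fold and Drc3 3.15-fold higher in OHC-like cells by mean. Within library series that held both groups, Drc3 passed the rule.

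Over the 42 members that passed the detection filter, the median log2 fold of mean CPM was 0.91 in OHC-like cells against WT_P60 SCs, with 32 of 42 above 0, where the median over all 12681 genes that passed was 0.18 and 54.7% were above 0. In nascent HCs it was 1.06 (27 of 42), where all genes had 0.23 and 56.4% were above 0. In SCs failing to become HCs it was 0.13 (22 of 42), where all genes had 0.17 and 55.2% were above 0. As a difference of mean log2(CPM + 1), the members' median there was -0.13. Nascent HCs against SCs failing to become HCs gave 0.94 (35 of 42), where all genes had 0.03 and 50.9% were above 0. WT_P30 OHCs against WT_P60 SCs gave -0.15 (21 of 42), where all genes had -0.05 and 49.0% were above 0. OHC-like cells against nascent HCs gave 0.01 (21 of 42), where all genes had -0.03 and 48.3% were above 0. After thinning to equal depth, the members' median there was -0.04. A member that is high in 1 group only passed the filter through that group, so these medians are a description.

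Other cilium genes under different symbols were examined from a list of 67 genes, of which 44 passed the filter. Against WT_P60 SCs, 8 were higher and 0 lower in OHC-like cells, 6 higher and 0 lower in nascent HCs, and 0 higher in SCs failing to become HCs. The background shares are those given above. Parts of the motile axoneme in OHC-like cells were Ccdc40, a ruler protein of the doublet (7 of 11 cells, at least 648-fold, and at least 412-fold without OHC-like cell 10), Spag6l of the central apparatus (6 of 11, at least 948-fold), Spef2 (6 of 11, at least 249-fold, and at least 99.9-fold without OHC-like cell 6) and the inner arm intermediate chain Wdr78 (6 of 11, ratio of summed levels 3241, interval 581 to 128031, and 1874 without OHC-like cell 7). Ccdc40, Spag6l and Spef2 had 0 reads in WT_P60 SCs and Wdr78 had 1. In SCs failing to become HCs, Ccdc40 was detected in 3 of 15 cells with a mean of 12.2 CPM, against 17.3 CPM in OHC-like cells, and Wdr78 in 4 with a mean of 19.0 CPM, against 24.3 CPM. In nascent HCs, Ccdc40 was at least 973-fold and Spag6l at least 1317-fold higher, each in 8 of 16 cells, so leaving out any cell that had it ended the call.

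Transport and ciliary membrane genes were also among them. Bbs1, of the BBSome that carries membrane proteins, was detected in 11 of 11 OHC-like cells and 2 of 16 WT_P60 SCs (11.6-fold, and 62.3-fold without WT_P60 SC 4). Hspb11, an IFT-B subunit also called Ift25, was 6.95-fold higher in OHC-like cells and 6.01-fold in nascent HCs (16.4-fold and 14.1-fold without WT_P60 SC 16). The kinesin subunit Kif3b was 12.3-fold and 8.91-fold higher, the latter at 8 of 16 cells, lost without any one of them and 4.22-fold without nascent HC 13. Kif3b was also higher by mean in SCs failing to become HCs (18.0 against 1.71 CPM, 10.5-fold), but at 6 of 15 cells it was not called. Dync2h1, the heavy chain of the retrograde dynein, was 4.11-fold higher in OHC-like cells, a call that 14 of 27 single-cell omissions ended. Traf3ip1 (IFT-B) and Dnaaf2 (dynein assembly) were 12.0-fold and 7.43-fold higher in nascent HCs, the former 18.3-fold or 19.5-fold without WT_P60 SC 15 or 13, and the latter at least 274-fold without WT_P60 SC 15.

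In WT_P30 OHCs, Dync2h1 was 4.42-fold and the transcription factor Rfx3 4.97-fold higher than in WT_P60 SCs, and the dynein chain Wdr34 4.19-fold lower. Each of these calls was lost when some single cells were left out: 3.52-fold for Dync2h1 without OHC 15, 3.95-fold for Rfx3 without OHC 11 and 3.38-fold for Wdr34 without WT_P60 SC 12. Rfx3 was 8.88-fold higher without WT_P60 SC 12, and Wdr34 was 13.7-fold lower without OHC 5. Of the regulators of multiciliated cells on the list, Foxj1 was detected in 1 WT_P30 OHC, 1 OHC-like cell and 1 nascent HC, Mcidas in 1 nascent HC and Gmnc in 0 cells. Ccno was detected in 3 OHC-like cells and 3 nascent HCs, with a maximum of 53.8 CPM, and in 0 cells of the other groups. Reads of Myb were found in 5 SCs failing to become HCs, up to 193 CPM, in 2 WT_P30 OHCs, up to 288 CPM, and in 1 or 2 cells of each other group.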

How the data were processed

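Per the labels and the authors' methods, quality control of the reads of each cell used FastQC 0.11.9, trimming used Trimmomatic 0.39, alignment to GRCm38 used HISAT2 2.1.0 and counting per gene used HTSeq 0.10.0. StringTie 1.3.5 was also named by the submitters, and its values were not used here. The deposited values were whole-number counts per gene and cell, not normalized. The annotation release and the strand setting are not given in the sources used here, so reads of overlapping genes on opposite strands cannot be told apart. The transgene element WPRE (0.0254% of counts) was left out.

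From these counts CPM was computed per cell, and TPM from exon lengths of the GRCm38 annotation (53699 of 55291 genes matched). Genes detected (1 CPM) in at least 8 cells were compared (12681). A fold against a group with no read used a floor of 3 counts over the group, and with 1 to 3 reads the ratio of sums is given with its interval. Python 3.11.15, edgeR 4.0.16 (TMM factors) and DESeq2 1.42.0 (size factors) were used.

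The members and lists were chosen with earlier results of these data known. Genes were named when called in any of the 7 comparisons, when among the 3 highest by TPM in a group, or when the study names them (Nme9 and Cfap161), and other pathway genes when called against WT_P60 SCs. Further members given with values were chosen after their values were seen. Groups came from the sample labels, and samples with the same values in every gene were sought and 0 pairs found. Leaving out OHC-like cell 4, and each cell in turn for the named genes, was added after seeing the data.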

Additional observations from a re-analysis of the deposited data

How the results depend on the processing

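No count or called fold of a named member changed direction under the alternatives tried, and of the summary values 162 stayed within the limits set and 46 moved. Those alternatives, and both totals, included a scaling by DESeq2 size factors that left read depth in the values. Its own results are therefore not given, and the totals without it were not counted. Medians near 0 did change sign. The members' median for SCs failing to become HCs against WT_P60 SCs was 0.13 and became -0.13 on mean log2(CPM + 1). That for OHC-like cells against nascent HCs was 0.01 and became -0.04 after thinning. For the latter comparison the median of all genes went from -0.03 to 0.03 with TMM, 0.01 without OHC-like cell 4 and 0.03 within shared library series. For nascent HCs against SCs failing to become HCs it went from 0.03 to -0.02 within shared series. TMM factors, no detection filter, detection from 10 CPM, thinning to equal depth and leaving out OHC-like cell 4 kept every count of members called, and the medians of members detected, within 1.5 times. The median log2 fold of all genes moved with the scaling: for OHC-like cells against WT_P60 SCs it was 0.18, and 0.38 with TMM. That of the members was 0.91, and 1.14 with TMM. For OHC-like cells against WT_P30 OHCs the median of all genes was 0.35, and 0.71 with TMM. For nascent HCs against SCs failing to become HCs it was 0.03, and 0.04 with TMM, with members at 0.94 and 0.88.

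The difference of mean log2(CPM + 1), at a threshold of 2, called 7 members higher and 2 lower in OHC-like cells against WT_P60 SCs, 10 higher in nascent HCs, 4 lower in SCs failing to become HCs and 9 lower in WT_P30 OHCs. Against WT_P30 OHCs it gave 20 higher in OHC-like cells, where the median of all genes also rose, to 0.99 from 0.35 by mean CPM. It gave 9 higher in nascent HCs than in SCs failing to become HCs, and 2 higher and 1 lower in OHC-like cells than in nascent HCs. No share of all genes called on that scale is set beside these counts, so they are not read as a result about the members. On that scale Cfap161, Cfap61, Nme9, Rsph9 and Drc1 were at 4.08, 2.36, 4.34, 3.42 and -7.38 in OHC-like cells against WT_P60 SCs. In nascent HCs Cfap161, Cfap61, Rsph9 and Drc1 were at 6.40, 3.62, 4.97 and -7.30, and Drc1 was at -7.39 in SCs failing to become HCs. Against WT_P30 OHCs, OHC-like cells had 4.08 for Cfap161, 2.36 for Cfap61 and 3.22 for Ift88, and nascent HCs against SCs failing to become HCs had 3.60 for Cfap61.

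At a fold of 2, members higher and lower numbered 15 and 4 in OHC-like cells, 15 and 4 in nascent HCs, 1 and 7 in SCs failing to become HCs and 4 and 9 in WT_P30 OHCs, all against WT_P60 SCs. They numbered 17 higher in OHC-like cells than in WT_P30 OHCs, 12 higher and 1 lower in nascent HCs than in SCs failing to become HCs, and 3 higher and 2 lower in OHC-like cells than in nascent HCs. At a fold of 8, 1 member was lower in each of nascent HCs, SCs failing to become HCs and WT_P30 OHCs than in WT_P60 SCs, 6 were higher in OHC-like cells than in WT_P30 OHCs and 2 higher in nascent HCs than in SCs failing to become HCs. Without the 50% detection rule, against WT_P60 SCs, 9 were higher in OHC-like cells, 9 in nascent HCs, 7 higher and 6 lower in SCs failing to become HCs, and 10 higher and 8 lower in WT_P30 OHCs. Also without it, 6 were lower in OHC-like cells than in WT_P30 OHCs, 8 higher and 1 lower in nascent HCs than in SCs failing to become HCs, and 1 higher in OHC-like cells than in nascent HCs. The looser rules admit more genes by construction, among all genes as well as among the members. No share of all genes is set beside these counts, so they show only how the calls depend on the settings.

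Restricted to library series with both groups, 1 member (Drc3) was higher in OHC-like cells than in nascent HCs, and the log2 fold of Cfap161 of nascent HCs over SCs failing to become HCs was 4.38. Counting any read as detection gave medians of 30 members in nascent HCs and 20 in SCs failing to become HCs. At 10 CPM the share of cells was 0% for Rsph9 in WT_P60 SCs, Nme9 in WT_P30 OHCs and Drc1 in nascent HCs. No paired analysis was possible because no result came from a test and cell numbers only name cells.

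With 11 to 17 cells per group, 0 detections allow a share of up to 19.5% in 17 cells by the exact interval, so absence cannot be stated. Cells of unknown animals give no error between animals.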
